A study of Mus musculus with 8 samples.

Results

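Fibroblasts formed a small part of the non-neuronal cells recovered from mouse hippocampus by single-cell RNA sequencing: 100 of 12954 cells that passed the gene and mitochondrial filters, themselves drawn from 14768 cell barcodes. The filters kept barcodes with 500 or more genes detected and with less than 15% of UMIs (unique molecular identifiers, each 1 counted transcript molecule) from mitochondrial genes. A cell was counted as a fibroblast when at least 3 of the 7 genes Dcn, Lum, Col1a1, Col1a2, Col3a1, Igf2 and Slc6a13 had a UMI and when the 4 exclusion genes Cldn5, Rgs5, Mog and Aqp4 together had at most 1 UMI. The exclusion genes mark endothelial cells, pericytes, oligodendrocytes and astrocytes. Because the cells were picked by their own transcripts, the levels of the 7 genes, and any contrast of fibroblasts with other cells, are given as description without a test.

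The study removed regulatory T cells and asked how the cells of the hippocampal niche changed. The DTRneg library came from Foxp3-DTR- littermate controls and the DTRpos library from Foxp3-DTR+ mice, in which the diphtheria toxin receptor is tied to Foxp3, the transcription factor that defines regulatory T cells. Both genotypes received diphtheria toxin, so the toxin is common to both. Each library pooled 2 mice and there was 1 library per genotype. Differences between the genotypes therefore have no replicate check and no test: every interval below is an exact 95% interval of the UMI counts and covers counting error only, not the spread between mice. Age, sex, toxin dose and timing were not given in the sources used here. The mice were perfused, the hippocampus was digested, and live CD45- Thy1- cells were sorted, a gate that removes leukocytes and Thy1-bearing cells. The sample labels call the sorted cells neurons and glia while the series calls them non-neuronal, and neither mentions fibroblasts. Whether meninges were stripped from the tissue was not given in the sources used here. Depletion of regulatory T cells cannot be read from these cells: all 5 T cell markers (Cd3e, Cd3d, Trac, Cd4 and Lck) were at 0 UMIs in the fibroblasts of both libraries.

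Brain fibroblasts lie in the meninges, in the sleeve around penetrating vessels and in the stroma of the choroid plexus. They secrete collagens, laminins and proteoglycans for the pial and vascular basement membranes, make retinoic acid and prostaglandins, and carry organic anion and amino acid transporters. Decorin (Dcn) and lumican (Lum) are small leucine-rich proteoglycans that bind collagen fibrils, Col1a1 and Col1a2 encode the chains of type I collagen, and Slc6a13 encodes the GABA and taurine transporter GAT2.

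The DTRneg library held 53484704 UMIs over 8220 barcodes and the DTRpos library 35814655 UMIs over 6548 barcodes. The libraries shared 18 barcode sequences, none of them from a fibroblast. The fibroblasts had a median of 2874 UMIs in DTRneg (767 to 7147) and 2654 in DTRpos (836 to 6887), and medians of 1401 and 1331 detected genes. Their sums were 187889 and 122725 UMIs, so that a level of 100 CPM (UMIs of a gene scaled to a total of 1000000 UMIs over the same cells) rested on 18.8 and 12.3 UMIs, and a gene with 0 UMIs could lie at up to 16 and 24.4 CPM. Reads came from the 3′ ends of transcripts, so CPM is a share of molecules and was not divided by gene length.

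Fibroblasts made up 57 of 7105 DTRneg cells, or 0.802% (exact binomial 95% interval 0.608 to 1.04), and 43 of 5849 DTRpos cells, or 0.735% (0.533 to 0.989). The log2 ratio of the shares, DTRpos over DTRneg, was -0.13 with an interval of -0.73 to 0.47, so a difference was not detectable at this number of cells. Choroid plexus cells, chosen by their own markers, took 2.69% and 0.633% of the same libraries, and pericytes 2.7% in each. Some cells stood close to the selection line, more of them in DTRpos. Among cells with at most 1 exclusion UMI, 3 DTRneg and 11 DTRpos cells had exactly 2 of the 7 genes and stayed out, and 2 and 5 cells had exactly 3 and came in. The excluded cells with 2 genes carried Dcn at 1995 and 418 CPM, and the included cells with 3 carried it at 5648 and 535 CPM. Members with no exclusion UMI carried Dcn at 5623 and 5654 CPM, so the 5 DTRpos cells just inside the line were closer in Dcn to those just outside than to these. A further 15 and 6 cells had 3 or more of the genes but at least 2 exclusion UMIs. Those cells carried Rgs5 at 1018 and 1267 CPM and were left out.

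The 5 fibroblast markers are all among the genes of the rule, so their detection follows from the selection and is no check of the label. Dcn had a UMI in 96.5% and 95.3% of the cells, Slc6a13 in 98.2% and 97.7%, Col1a2 in 86% and 83.7%, Col1a1 in 84.2% and 72.1%, and Lum in 64.9% and 74.4%. In mature oligodendrocytes, which should lack Dcn and had deeper medians of 7648 and 6315 UMIs, Dcn had a UMI in 0.102% and 0.109% of cells. Rgs5 and Cldn5 gave no UMI in either library, which the rule nearly fixes. Among markers of other vascular and barrier cells that the rule did not use, Higd1b (pericytes), Acta2 and Myh11 (smooth muscle), Pecam1 (endothelium), and Kcne2 and Folr1 (choroid plexus epithelium) were also at 0 in both libraries. Other members of the same lists were present. Kcnj8 of the pericyte list gave 6 UMIs in DTRneg and 2 in DTRpos, Tagln of the smooth muscle list 13 and 12, and Cdh5 of the endothelial list 5 and 7. Of the choroid plexus list, Kl gave 13 and 7 UMIs. Ttr gave 22 UMIs in 18 cells and 5 UMIs in 4 cells, a log2 ratio, DTRpos over DTRneg, of -1.52 (-3.28 to -0.09). In pericytes of the same libraries Ttr stood at 3453 and 17.8 CPM, against 117 and 40.7 CPM in fibroblasts. The 8 microglia and macrophage markers gave 0 and 1 UMIs. The 6 neuronal markers gave 7 and 0 UMIs. Some genes listed as markers of other cells were nonetheless abundant. Vtn gave 2168 of 2239 UMIs of the pericyte list in DTRneg and 1438 of 1496 in DTRpos, Itm2a 91 of 105 and 43 of 52 of the endothelial list, and Rarres2 all 161 and 84 of the ependymal list. Pdgfra, a growth factor receptor of fibroblasts as well as of oligodendrocyte precursors, gave 141 of 172 and 67 of 71 UMIs of the precursor list, and Slc1a3 184 of 311 and 105 of 233 of the astrocyte list. The 9 mature oligodendrocyte markers summed to 64 UMIs in DTRneg and 109 in DTRpos, 341 and 888 CPM. They were found in 37 of 57 and 37 of 43 cells. The part of oligodendrocyte and choroid plexus RNA in the differences between genotypes was not tested.

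**Figure D1:**
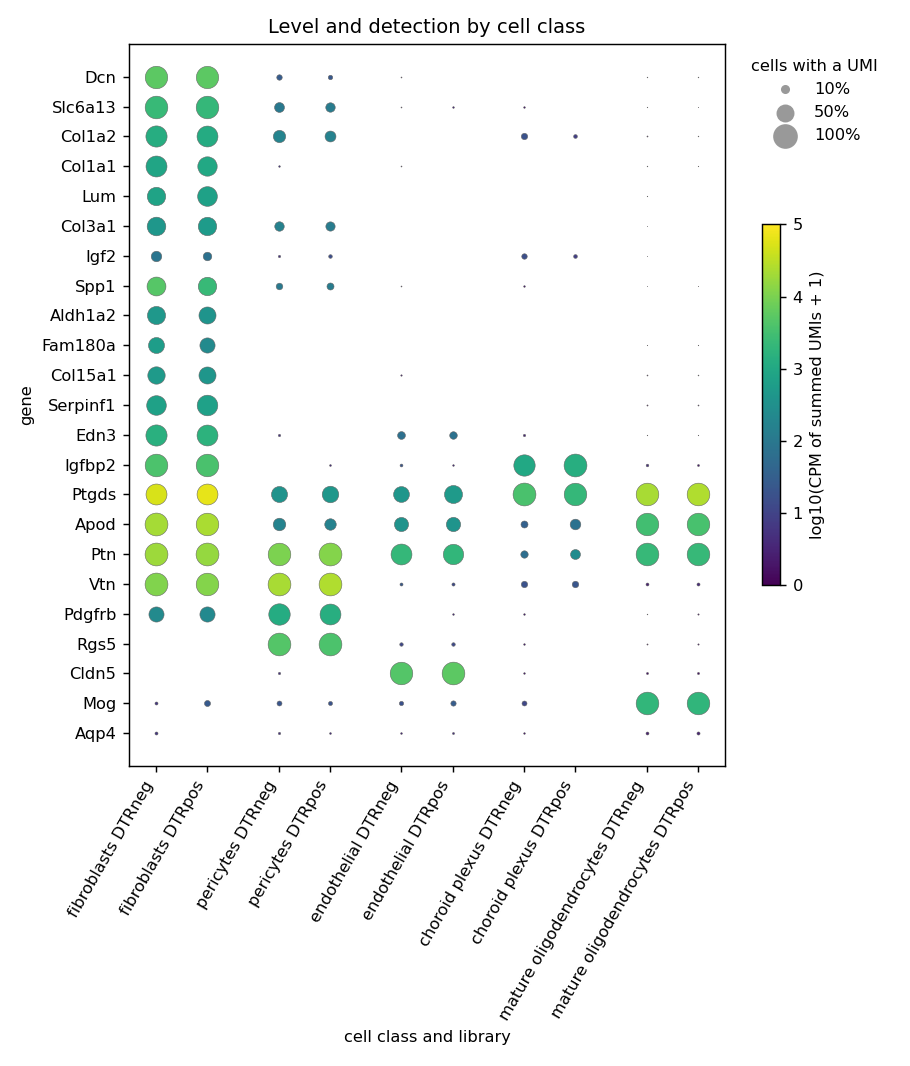
Level and detection of 23 genes (rows) in fibroblasts, pericytes, endothelial cells, choroid plexus cells and mature oligodendrocytes of each library (columns). Colour is log10 of CPM plus 1 over the summed UMIs and dot area is the percentage of cells with a UMI. Dcn at 5620 and 5394 CPM and Aldh1a2 at 458 and 391 CPM fill the fibroblast columns and are near 0 elsewhere, whereas Vtn reaches 22464 and 25685 CPM in pericytes.

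Genes were ranked by level with mitochondrial and ribosomal protein genes left out. The most abundant protein-coding transcript so ranked was Ptgds, which encodes the lipocalin-type prostaglandin D synthase of the leptomeninges (chr2:25466709-25470046, minus strand, GRCm38). It took 49018 CPM in DTRneg and 64983 in DTRpos fibroblasts, or 4.9% and 6.5% of their UMIs. Mature oligodendrocytes, which also express Ptgds, carried 22320 and 25873 CPM, while pericytes carried 367 and 452 CPM. Apod, the lipid-binding apolipoprotein D (chr16:31296192-31314808, minus strand), stood at 21002 and 23353 CPM, and Ptn, the heparin-binding growth factor pleiotrophin (chr6:36714929-36810220, minus strand), at 18649 and 16386 CPM. Pericytes shared the high Ptn level, at 10316 and 11723 CPM, but had Apod at only 173 and 167 CPM. Vtn, the adhesive plasma and matrix protein vitronectin (chr11:78499091-78502324, plus strand), was at 11539 and 11717 CPM in fibroblasts. Its pericyte level was higher in both libraries, at 22464 and 25685 CPM. Apoe, a lipid carrier, stood at 8643 and 9843 CPM. By the mean of the libraries Dcn came next among proteins (chr10:97479609-97518143, plus strand) at 5620 and 5394 CPM, with Igfbp2, an insulin-like growth factor binding protein, at 3912 and 3683 CPM. The nuclear long non-coding RNA Malat1 was the most abundant of all ranked transcripts, at 81681 and 60493 CPM.

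A set of secreted and transport genes stood far above their level in the pool of all other cells. Of 1331 genes with at least 100 CPM in the fibroblasts of both libraries, the rule genes left out, 44 (3.31%) were at least 100-fold above all other cells in both, and 178 at least 10-fold. Aldh1a2, which makes retinoic acid (chr9:71215789-71296243, plus strand), led them. It had 458 and 391 CPM in fibroblasts and 5 and 3 UMIs in all 7048 and 5806 other cells. The aldehyde oxidase Aox3 had 181 and 277 CPM against 6 and 2 UMIs in the other cells. The renal-type organic anion transporter Slc22a6 had 277 and 359 CPM against 8 UMIs in each. The hyaluronan-depolymerising protein Cemip had 335 and 293 CPM against 9 and 8 UMIs. The matrix and secreted genes among the first 20 were Fam180a, Itih2, Col6a1, Srpx2, Col13a1, Col15a1, Clec3b, Spp1, Col12a1, Lama1, Serpinf1, Edn3 and Fmod. Spp1 stood at 103 and 117 CPM in pericytes, with a UMI in 8.33% and 9.49% of them, against 4817 and 2330 CPM in fibroblasts. The most abundant of the 20 after Spp1 was the vasoactive peptide gene Edn3, at 1469 and 1597 CPM, with 65.2 and 73.4 CPM in endothelial cells. Inmt, Clmp and Gpr182 completed the 20. Fn1, the matrix glycoprotein fibronectin, was not among the abundant genes. It gave 1 and 3 UMIs in fibroblasts, or 5.32 and 24.4 CPM, against 508 and 501 CPM in endothelial cells.

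Collagens and proteoglycans set the structural profile. Of 9 fibrillar collagen genes, Col1a2 stood at 1309 and 1141 CPM, Col1a1 at 878 and 994 CPM and Col3a1 at 447 and 530 CPM. The other 6 averaged under 100 CPM, and Col2a1 of cartilage gave no UMI. Basement membrane Col4a1 was at 953 and 970 CPM, above the 721 and 705 CPM of pericytes. Among the small leucine-rich proteoglycans, Dcn was followed by biglycan (Bgn) at 1208 and 1165 CPM, Lum at 793 and 725 CPM and Prelp at 740 and 652 CPM. Sparc, a collagen-binding matricellular protein, had 3268 and 2819 CPM, and Timp3, an inhibitor of matrix metalloproteinases, 1469 and 1589 CPM.

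Transporters and retinoid genes were the other main groups. Of 41 leptomeningeal solute carriers, 33 had a UMI and 13 averaged at least 100 CPM. Slc7a11, the cystine and glutamate exchanger, stood at 2432 and 1687 CPM, and Slc6a13 (chr6:121300227-121337733, plus strand) at 2352 and 2119 CPM. The glutamate transporter Slc1a3, better known from astrocytes, was at 979 and 856 CPM and had a UMI in 84.2% and 62.8% of the cells. The organic anion transporter Slc22a8 stood at 569 and 725 CPM. Among retinoid genes, Aldh1a1 was at 569 and 831 CPM and Rarres2 at 857 and 684 CPM. Transcription factors that mark forebrain meninges were present at lower levels: Nr2f2 at 538 and 407 CPM, Zic1 at 495 and 367 CPM, Foxc1 at 404 and 342 CPM and Foxd1 at 277 and 285 CPM. Markers used to divide meningeal fibroblasts by layer were found from more than 1 layer. Perivascular Itih5 stood at 3736 and 3333 CPM and pial S100a6 at 1879 and 1459 CPM. Of the 9 arachnoid markers, Aldh1a2 alone averaged 100 CPM. The cell cycle list had 15 and 10 UMIs in all, with Mki67 and Top2a at 0.

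Ptgds was unevenly spread over the cells. In DTRneg it ranged from 0 to 46.6% of a cell's UMIs with a median of 0.391%, and 9 cells had none. In DTRpos it ranged from 0 to 51.9% with a median of 1.38%, and 7 cells had none. The 10 richest cells held 72% of the Ptgds UMIs in DTRneg and 85% in DTRpos. By contrast Ptn ranged from 0.0641% to 4.9% and from 0.051% to 5.12% of a cell's UMIs, with no cell at 0. A line at 1% of UMIs, set after the values were seen, put 24 of 57 DTRneg cells (42.1%, exact interval 29.1 to 55.9) and 23 of 43 DTRpos cells (53.5%, 37.7 to 68.8) above it. The line cuts a range and does not define a cell type: 6 and 4 cells lay within 2-fold of it. Median total UMIs, Ptgds included, were 2967 above and 2729 below the line in DTRneg and 2654 and 2676 in DTRpos. Ptgds adds to the totals above the line, so these medians do not compare depth in the other genes.

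Cells on either side of that line differed in other genes, described here with Ptgds itself taken out of the totals and without a test, since the split was read from the same cells. Of 1726 genes, 29 (1.68%) were at least 2-fold higher and 26 (1.51%) at least 2-fold lower above the line in both libraries. The 5 rule genes compared differed by less than 2-fold between the sides. Slc6a13 had log2 ratios of 0.13 (-0.15 to 0.40) in DTRneg and 0.00 (-0.36 to 0.37) in DTRpos, and Dcn of -0.26 (-0.45 to -0.08) and -0.16 (-0.39 to 0.06). Col1a1 had 0.28 (-0.18 to 0.74) and 0.59 (0.04 to 1.15), Col1a2 0.15 (-0.22 to 0.53) and -0.21 (-0.71 to 0.29), and Lum -0.06 (-0.56 to 0.43) and 0.61 (-0.03 to 1.27). Genes higher above the line included the gap junction gene Gjb2, at 596 against 143 CPM in DTRneg and 542 against 198 CPM in DTRpos. The transporter Slc22a6 was higher by log2 ratios of 1.19 and 1.87, and Aox3 by 1.38 and 1.39. Genes lower above the line included Igfbp7, a secreted growth factor binding protein (chr5:77349240-77408041, minus strand), at 149 against 858 CPM in DTRneg and 33.8 against 880 CPM in DTRpos. The alarmin Il33 was lower by log2 ratios of -2.03 and -3.79, the matricellular growth factor gene Ccn2 by -1.29 and -2.48, and the fibril-associated collagen gene Col12a1 by -1.21 and -1.63. Lama1, the laminin chain of pial basement membrane, went opposite ways in the libraries, at -1.75 (-2.97 to -0.69) and 0.59 (-0.64 to 1.89).

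**Figure D2:**
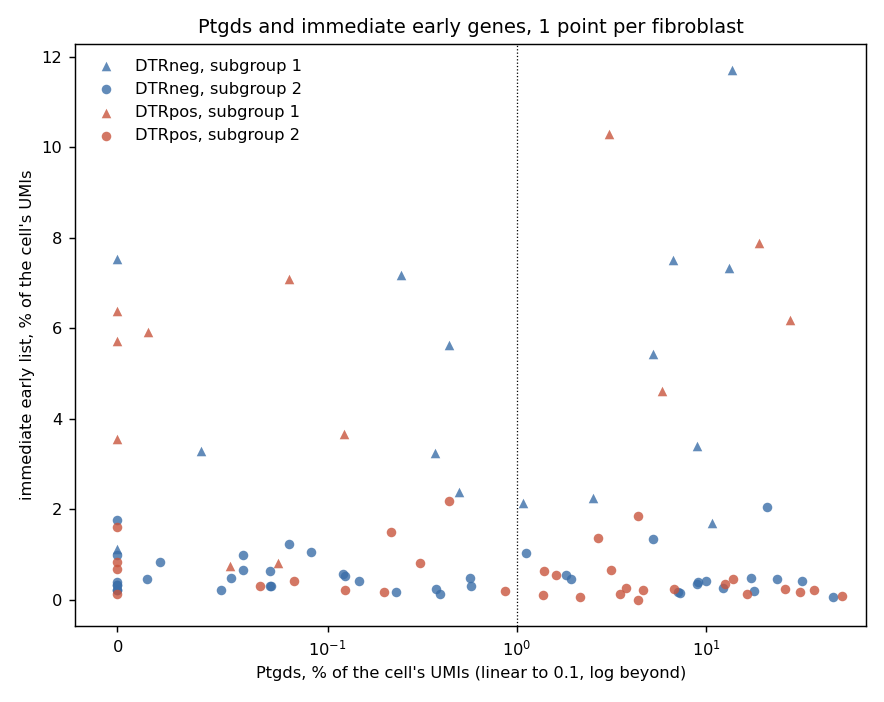
Ptgds (x axis, linear up to 0.1% and logarithmic beyond) against the immediate early list (y axis), each as a percentage of a cell's UMIs, with 1 point per fibroblast, colour for the library and shape for the cluster subgroup. The dotted line marks 1% Ptgds. Cells of subgroup 1, with list medians of 3.4% and 5.82%, lie on either side of the line in both libraries.

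Clustering of the 100 cells gave 2 subgroups at the chosen resolution, and their shares were close in the libraries. Subgroup 1 held 15 of 57 DTRneg cells (26.3%, 15.5 to 39.7) and 12 of 43 DTRpos cells (27.9%, 15.3 to 43.7). It was led by immediate early genes, which encode transcription factors and feedback regulators induced within minutes of a stimulus and which tissue dissociation can also induce. The list of 45 such genes, of which 44 are in the files, took a median of 3.4% and 5.82% of UMIs in subgroup 1 and 0.411% and 0.248% in subgroup 2. Fos (chr12:85473890-85477273, plus strand) had 578 of its 617 DTRneg UMIs and 493 of its 532 DTRpos UMIs in subgroup 1. Atf3 and Gadd45g, both stress-response genes, had no UMI in subgroup 2 of either library, nor did the neutrophil chemokine gene Cxcl1. Single cells held 23 of 32, 69 of 125 and 35 of 47 of their DTRneg UMIs. The subgroups were clustered from these same counts, so the contrasts between them are description only. List shares overlapped in DTRpos, from 0.751% upward in subgroup 1 and up to 2.19% in subgroup 2. Dcn was alike in the subgroups, at 5399 and 5487 CPM in subgroup 1 and 5739 and 5336 CPM in subgroup 2. Cells with at least 5% of UMIs in the list, a line drawn after the values were seen, were 7 of 57 and 7 of 43 fibroblasts. The same line was passed by 37 of 192 and 21 of 158 pericytes, by 149 of 513 and 93 of 373 endothelial cells, by no choroid plexus cell, and by 0 of 3922 and 3 of 2751 mature oligodendrocytes. The part of tissue handling in this pattern was not tested.

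Promoter windows from RefSeq (GRCm38.p6, 250 bases before to 50 after the start site) were searched for 2 motifs of stimulus-induced genes. Windows were found for 36 of the 45 list genes. The cAMP response element TGACGTCA, a palindrome and so the same on each strand, occurred in 3 of their 51 windows (5.88%), those of Btg2, Dusp1 and Maff, against 1.79% of all 32851 windows. The CArG box, bound by serum response factor, occurred in 5 of the 51 windows (9.8%), of Egr2 and Zfp36, against 1.63% of all windows. Those 5 windows belong to 2 of the 36 genes (5.56%), and Egr2 gave no UMI in the fibroblasts of either library. A match describes the letters only. Btg2, an antiproliferative immediate early gene, and Dusp1, a phosphatase that turns off MAP kinases, are shown because both have the motif and both were concentrated in subgroup 1. Btg2 had 133 of 140 and 52 of 57 UMIs there, and Dusp1 72 of 83 and 86 of 92. The Btg2 window lies at chr1:134079106-134079405 and the Dusp1 window at chr17:26508423-26508722, both on the minus strand, and capitals mark the motif, which begins 166 and 143 bases before the start sites.
Btg2: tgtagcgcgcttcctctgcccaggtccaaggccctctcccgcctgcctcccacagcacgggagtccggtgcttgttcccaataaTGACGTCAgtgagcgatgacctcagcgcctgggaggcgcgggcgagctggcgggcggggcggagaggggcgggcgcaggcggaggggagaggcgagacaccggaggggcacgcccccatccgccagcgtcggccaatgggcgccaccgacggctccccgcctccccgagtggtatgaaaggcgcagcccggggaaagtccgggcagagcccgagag
Dusp1: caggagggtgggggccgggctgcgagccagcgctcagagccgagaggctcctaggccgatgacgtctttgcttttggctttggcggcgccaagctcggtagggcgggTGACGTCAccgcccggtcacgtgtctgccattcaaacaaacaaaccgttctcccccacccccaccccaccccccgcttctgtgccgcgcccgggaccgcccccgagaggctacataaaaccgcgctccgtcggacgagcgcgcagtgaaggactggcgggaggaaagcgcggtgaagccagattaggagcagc

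Between the genotypes most fibroblast genes differed little. Of 1620 genes with a mean of at least 100 CPM, 48 (2.96%) were at least 2-fold higher in DTRpos, 36 (2.22%) were at least 2-fold lower, and 84 (5.19%) passed 2-fold in either direction. The median log2 ratio over all 1620, DTRpos over DTRneg, was 0.01. The count moved with the level at which genes entered: it was 345 of 3151 genes at a mean of at least 50 CPM and 19 of 735 at a mean of at least 200 CPM. None of the 6 rule genes above 100 CPM passed 2-fold: their log2 ratios ran from -0.20 (Col1a2) to 0.24 (Col3a1). Ptgds had 9210 UMIs in DTRneg and 7975 in DTRpos, a log2 ratio of 0.41, but the alternatives for choosing and weighting cells ran from -0.16 to 0.53.

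**Figure D3:**
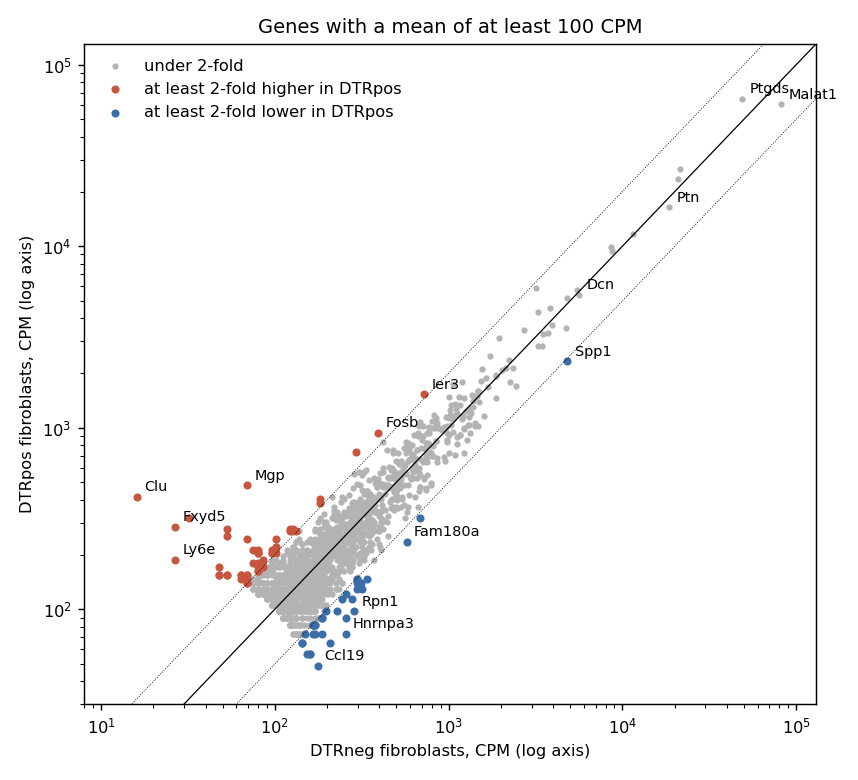
Level of each of the 1620 genes in DTRneg (x axis) and DTRpos (y axis) fibroblasts, in CPM on log axes, with the line of equality and dotted lines at 2-fold. The 48 genes higher in DTRpos (red) and the 36 lower (blue) lie mostly at low levels. Spp1, at 4817 and 2330 CPM, is the only one among them of the 15 most abundant genes, mitochondrial and ribosomal protein genes left out.

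Among the 10 highest ratios, 6 genes had 71.2% or more of their DTRpos UMIs in 1 cell. Clu, the chaperone and complement regulator clusterin, had 3 UMIs in DTRneg and 51 in DTRpos, a log2 ratio of 4.70 (3.07 to 7.03), and 45 of the 51 lay in 1 cell. That cell also held 34 of 39 UMIs of the glutamate transporter Slc1a2 and 28 of 34 of the metallothionein Mt3, all of them genes abundant in astrocytes, beside 24 UMIs of Dcn and 5 of Slc6a13. It had 0 UMIs of Aqp4 and 44.4% of the library's Cst3 UMIs. A second DTRpos cell held 33 of 35 Fxyd5, 42 of 59 Mgp and 17 of 23 Ly6e UMIs. It entered on 3 genes, Col1a1, Col1a2 and Col3a1, and had 0 UMIs of Dcn, Slc6a13, Vtn and Apod. Mgp, an inhibitor of calcification, and Fxyd5, a regulator of the sodium pump, stand in the dural list, and their ratios of 2.80 and 3.42 were 1.41 (0.20 to 2.70) and 0.06 (-3.52 to 3.19) without the richest cell of each library. Ratios spread over more cells were those of Ap2s1, an adaptor of clathrin coats (9 and 19 UMIs in 8 and 15 cells, 1.69, 0.48 to 3.02), and Glrb, a glycine receptor subunit (9 and 21 UMIs in 8 and 14 cells, 1.84, 0.65 to 3.15). The other 2 of the 10 lay between: Chchd10 had 10 and 31 UMIs with 14 in the richest DTRpos cell, and Gstm5 had 13 and 30 UMIs with 10 in the richest. Without the richest cell of each library, 8 of these 10 and 37 of the 48 higher genes were still past 2-fold. That leave-out also took each gene's richest DTRneg cell, which held 2 of 3 Clu, 3 of 6 Slc1a2 and 3 of 5 Ly6e UMIs. The ratios left were 3.21 (0.17 to 8.73) for Clu, 1.36 for Slc1a2 and 2.20 (-0.29 to 5.54) for Ly6e. The intervals of Slc1a2 and Ly6e then included 0, so passing 2-fold does not set these genes apart from counting error.

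For the 36 genes lower in DTRpos, the median number of cells with a UMI was 26.5 in DTRneg and 9 in DTRpos. Of the 36, 33 were still past 2-fold without the richest cell. For the 48 higher genes the medians were 12 and 14 cells. DTRneg had 57 cells and 187889 UMIs against 43 and 122725 in DTRpos, so these cell numbers do not compare the sets on like terms. Hnrnpa3, an RNA-binding protein, had 48 UMIs in 27 DTRneg cells and 9 UMIs in 8 DTRpos cells, a log2 ratio of -1.80 (-3.01 to -0.76). Over the 11 alternatives with a finite ratio it ran from -2.29 to -1.69. Most named genes, such as Spp1, had 12, and a setting with 0 UMIs in a library gave no ratio and was left out. Rpn1, a subunit of the oligosaccharyltransferase that glycosylates secretory proteins (chr6:88084482-88105304, plus strand), had 54 UMIs in 34 cells and 12 UMIs in 10 cells, at -1.56 (-2.59 to -0.64). Arf1, a GTPase of Golgi vesicle coats, had 60 UMIs in 35 cells and 16 UMIs in 13 cells, at -1.29 (-2.19 to -0.48). The RNA-binding protein gene Pcbp1 stood at -1.51, and Npdc1, Ggact, Nudc and the kinase gene Rock2 between -1.67 and -1.34. Nr4a1, an immediate early nuclear receptor, was at -1.49 (-2.92 to -0.27) with 30 and 7 UMIs. Ccl19, the chemokine that attracts CCR7-bearing T and dendritic cells (chr4:42754525-42756577, minus strand), was lowest of all. It had 33 UMIs in 16 of 57 cells and 6 UMIs in 3 of 43 cells, at -1.84 (-3.39 to -0.57). In subgroup 1 it had 20 and 0 UMIs, while in subgroup 2 it had 13 and 6 and a ratio of -0.42 (-2.10 to 1.08). Ccl19 has near-identical copies in its locus, between which counting could split reads, so its level is uncertain.

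**Figure D4:**
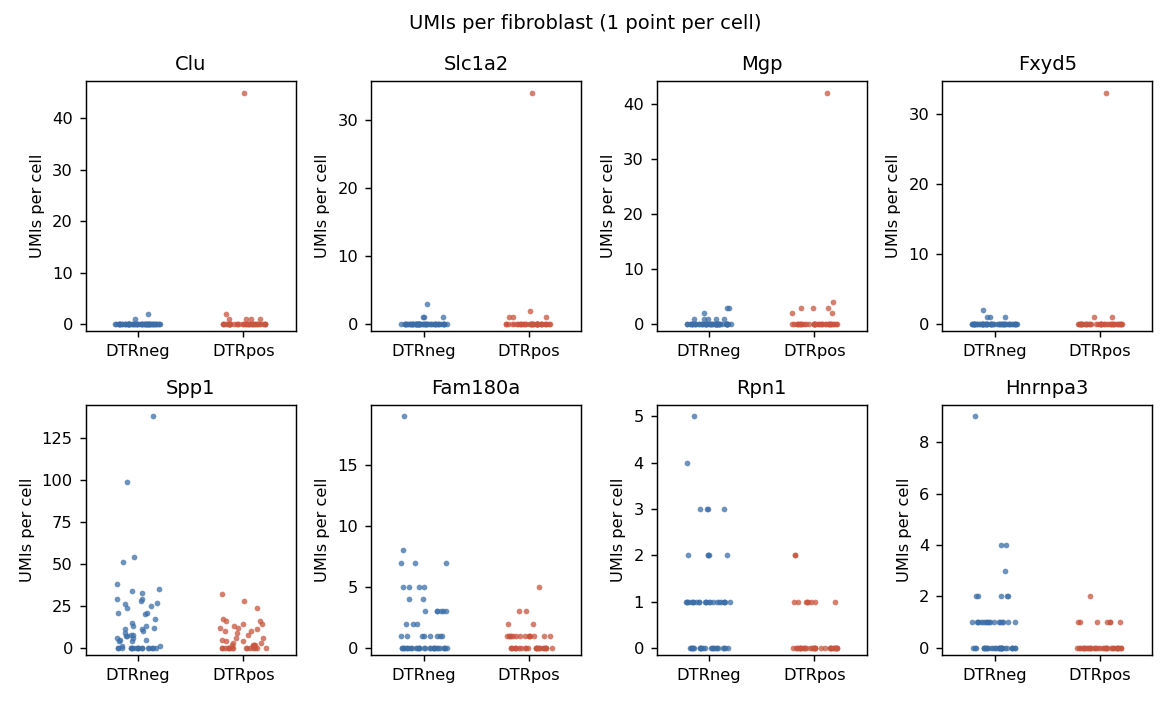
UMIs per fibroblast (y axis, linear, with its own scale in each panel) of 8 genes by library, with 1 point per cell and sideways scatter for legibility. Single DTRpos cells with 45, 34, 42 and 33 UMIs carry Clu, Slc1a2, Mgp and Fxyd5, whereas Spp1, Fam180a, Rpn1 and Hnrnpa3 have UMIs in many cells of DTRneg and fewer UMIs in DTRpos.

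With mitochondrial and ribosomal protein genes left out, Spp1 was the only one of the 15 most abundant genes past 2-fold. It encodes osteopontin, a phosphorylated matrix and signalling protein of perivascular fibroblasts (chr5:104435118-104441050, plus strand). It had 905 UMIs in 39 of 57 DTRneg cells, up to 138 in 1 cell, and 286 UMIs in 28 of 43 DTRpos cells, up to 32 in 1 cell. The levels were 4817 and 2330 CPM, a log2 ratio of -1.05 (-1.24 to -0.85), and -0.99 without the richest cell of each library. Over 12 alternatives it ran from -1.35 to -0.92 and passed 2-fold in 7. The cells of the libraries overlapped, with medians of 0.269% and 0.163% of a cell's UMIs and with 18 and 15 cells at 0. In subgroup 2 the ratio was -1.35 (-1.58 to -1.12) and in subgroup 1 it was 0.15 (-0.26 to 0.55). Above the 1% Ptgds line it was -0.47 (-0.83 to -0.12) and below it -1.09 (-1.33 to -0.85). Cells above that line, 42.1% of DTRneg and 53.5% of DTRpos fibroblasts, had less Spp1 than those below, by log2 ratios of -1.48 and -0.85. The differences between these sets, and the part of the cell mix in the Spp1 ratio, were not tested. Fam180a, a secreted protein gene, had 108 UMIs in 28 cells and 29 UMIs in 19 cells, at -1.28 (-1.93 to -0.68). Its ratio was -2.42 (-3.54 to -1.45) among cells above the 1% Ptgds line and -0.23 (-1.09 to 0.58) below it.

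Structural gene lists stayed close to the median of all genes. The 3 fibrillar collagens above 100 CPM had a median log2 ratio of 0.18 and the 8 other collagens 0.01, with none past 2-fold. The 7 basement membrane genes had a median of -0.10 and the 6 small leucine-rich proteoglycans -0.16, again with none past 2-fold. Of 9 matrix processing genes 1 was past 2-fold, the serine protease gene Htra1, with 25 and 33 UMIs (1.01, 0.22 to 1.83). The 13 solute carriers had a median of 0.15, the 6 retinoid genes -0.08 and the 14 meningeal transcription factors -0.28, none past 2-fold. Over all 1620 genes 5.19% passed 2-fold in either direction, so none or 1 in lists this short is no result about their genes. Within the retinoid list Aldh1a1 had 107 and 102 UMIs (0.55, 0.14 to 0.95). Of 2 prostaglandin genes Ptges3, a co-chaperone also described as a prostaglandin E synthase, was past 2-fold with 56 and 18 UMIs (-1.02, -1.88 to -0.23).

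Layer lists differed in sign. All 7 perivascular markers above 100 CPM were below 0, with a median of -0.25 and Spp1 the lone gene past 2-fold. All 4 pial markers were below 0 as well, with a median of -0.38, and Lama1 is in both lists. Over all 1620 genes, 51.4% were above 0 and 5.19% were past 2-fold in either direction. The intervals of Itih5 (-0.34 to 0.01), Lama1 (-1.12 to 0.32) and Lama2 (-1.64 to 0.32) included 0, while that of Spp1 did not (-1.24 to -0.85). Intervals are not given here for every marker. The pial S100a6 stood at -0.37, and the pial list summed to 3768 and 2990 CPM (-0.33, -0.52 to -0.15). The 3 dural genes were above 0, with a median of 2.80, and 0.44 without the 2 DTRpos cells that were richest in Clu and in Mgp.

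Signalling and immune lists held few measured genes. All 4 chemokines and cytokines above 100 CPM were below 0, with a median of -0.57: Cxcl12, a retention factor for progenitors and leukocytes, had 230 and 120 UMIs (-0.32, -0.65 to 0.00), Il33 had 68 and 28 (-0.67, -1.36 to -0.01), Cxcl1 had 47 and 22 in 5 and 2 cells (-0.48), and Ccl19 is given above. The other 33 genes of that list averaged less, and 24, among them Cxcl9, Cxcl10, Il6 and Tnf, gave no UMI in either library. Of 44 interferon-gamma response genes 32 had a UMI and 5 averaged 100 CPM. The class I molecules H2-D1 (36 and 35 UMIs, 0.57, -0.14 to 1.29) and H2-K1 (23 and 25 UMIs, 0.73, -0.14 to 1.62) and the proteasome activators Psme1 (1.28, 0.16 to 2.45) and Psme2 (0.54) were above 0, and B2m, the class I light chain, was at -0.24 (-1.08 to 0.56). Psme1, the only measured member past 2-fold, had 12 and 19 UMIs, 8 of the 19 in 1 DTRpos cell. Its ratio was 0.77 (-0.60 to 2.16) without the richest cell of each library, and passed 2-fold in 5 of 12 alternatives. H2-D1 and H2-K1 belong to a family of similar genes, so reads may be split between its members. The list summed to 1283 and 1638 CPM in fibroblasts, a log2 ratio of 0.35 (0.08 to 0.63), beside 6534 and 9194 CPM in endothelial cells (0.49, 0.44 to 0.54) and 1259 and 1096 CPM in pericytes (-0.20, -0.41 to 0.01). The 4 type I interferon genes had a median of -0.11. Of 5 WNT pathway genes 2 were past 2-fold higher, where 2.96% of all genes were, the ligand Wnt4 (19 and 27 UMIs, 1.12, 0.22 to 2.05) and the feedback inhibitor Nkd1 (13 and 17 UMIs, 69.2 and 139 CPM, interval of the log2 ratio -0.13 to 2.16), and the median was 0.54. The 8 TGF-beta and BMP genes had a median of 0.15 and none past 2-fold. The 4 contractile genes were all below 0, with a median of -0.54 and none past 2-fold, and smooth muscle actin Acta2 gave no UMI. Beside these counts, 51.4% of all 1620 genes were above 0 and 5.19% were past 2-fold in either direction.

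Immediate early genes had a median of 0.14 over 33 measured members, 22 of them above 0, where 51.4% of all genes were. Ier3, an early apoptosis regulator, had 136 and 188 UMIs (1.08, 0.76 to 1.41) and Fosb 74 and 115 (1.25, 0.82 to 1.69), both past 2-fold upward, while Nr4a1 was past 2-fold downward. The list sum was higher in DTRpos fibroblasts, at 21358 and 26417 CPM (0.31, 0.24 to 0.37). It was lower in DTRpos pericytes, at 27667 and 22507 CPM (-0.30, -0.34 to -0.25), and in endothelial cells, at 40222 and 36058 CPM (-0.16, -0.18 to -0.14). Below the 1% Ptgds line the fibroblast ratio was 0.75 (0.65 to 0.85) and above it -0.12 (-0.21 to -0.03). Most UMIs of the list came from few fibroblasts: the 15 and 12 cells of subgroup 1 held 3356 of 4013 in DTRneg and 2783 of 3242 in DTRpos. The ratio was 0.20 (0.13 to 0.27) in subgroup 1 and 0.18 (0.01 to 0.36) in subgroup 2. Medians per fibroblast were 0.533% and 0.626% of UMIs. The intervals count UMIs as independent and leave out the spread between cells. The part of these genes in the other differences was not tested.

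The remaining lists had medians between -0.12 and 0.11: insulin-like growth factor axis (4 genes), growth and trophic factors (4), growth factor and cytokine receptors (10), adhesion and junction genes (9), and metal and lipid handling (12), the last with Mt3 past 2-fold. The 16 elastic and matricellular genes had a median of -0.13 with Spp1 and Mgp past 2-fold, and the 4 complement genes a median of -0.14 with Clu past 2-fold. In the adhesion list 1 gene, the leukocyte adhesion receptor Icam1, was past 2-fold, with 9 and 19 UMIs in 6 and 4 cells (1.69, 0.48 to 3.02). The share past 2-fold over all 1620 genes was 5.19%.

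**Figure D5:**
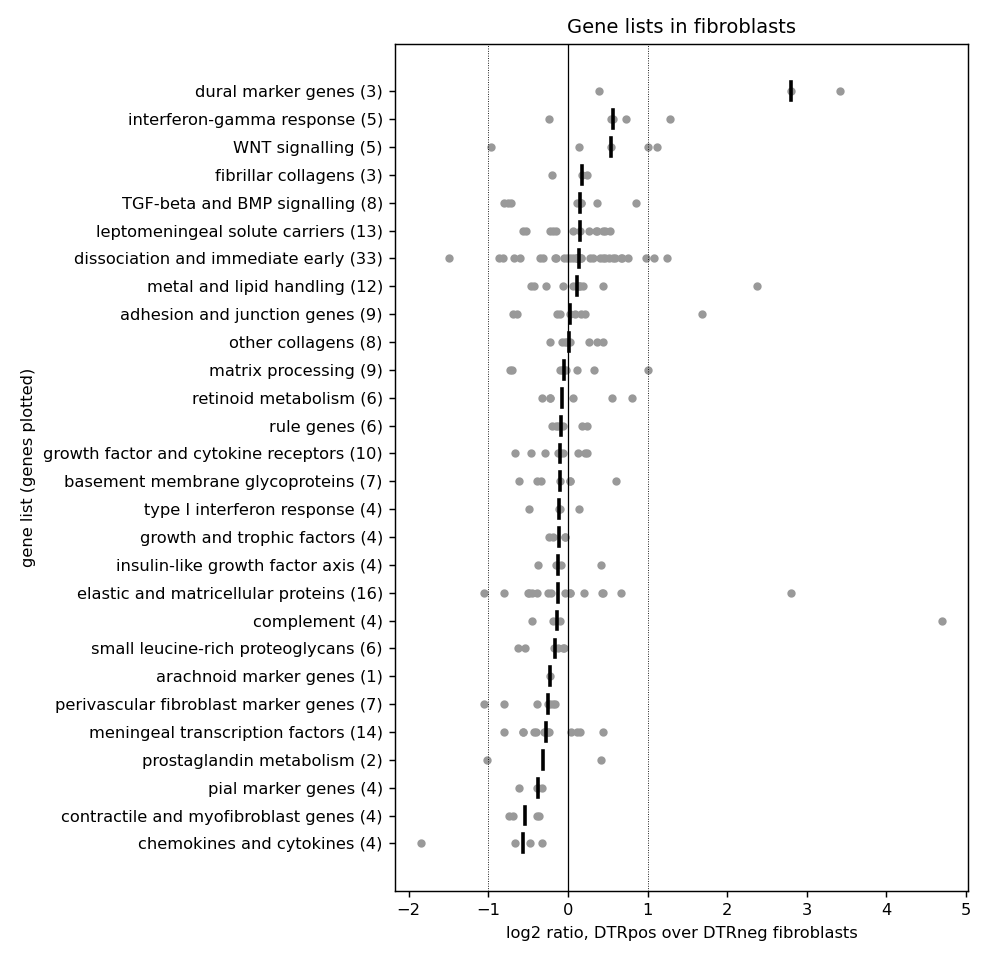
Log2 ratio, DTRpos over DTRneg, of each fibroblast gene with a mean of at least 100 CPM (grey points) by gene list, with the number of genes plotted and a black bar at the list median. Dotted lines mark 2-fold. Medians run from -0.57 (chemokines and cytokines) to 0.57 (interferon-gamma response), apart from 2.80 for the 3 dural genes.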

How the data were processed

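The deposited files are 10x matrices of whole UMI counts per gene and barcode. The authors made them with Cell Ranger 6.1.0 per the file headers, against mm10 per the submitters' processing notes, which also name Seurat. Count matrices were read unnormalised for 55487 genes, with counts of genes sharing a symbol summed, and 0 columns of per-sample values went unmatched. Cells were filtered, selected by the rule and summed per library with Python 3.11.15, numpy 2.4.6, scipy 1.17.1 and pandas 2.3.3. CPM used the summed total. Intervals are exact binomial (Clopper-Pearson) for shares and exact conditional binomial for ratios, at 95%, and the floor is 3 counts over the group's summed UMIs. Scripts were tested on simulated data. Subgroups came from scanpy 1.11.5 (2000 variable genes, 20 components, 15 neighbours, Leiden 0.5). No doublet caller was used in the selection. The rule caps 4 genes of other classes and does not test for others. Scrublet, run as an alternative, marked 242 and 158 cells, of which 3 and 1 were fibroblasts.

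Named genes were the rule and exclusion genes, the 15 most abundant (mitochondrial and ribosomal protein genes left out) and the 20 most enriched over other cells. They also took in the 10 highest and 10 lowest ratios past 2-fold, and from each gene list the 4 most abundant members and any past 2-fold. Other genes named, and the lines at 1% Ptgds and 5% immediate early UMIs, were chosen after their values were seen. The members and the gene lists were chosen with earlier results of these data known. Alternatives varied the filters, rule, doublets, depth, weighting, scaling, level filter and single cells. Gene positions are from GENCODE vM21 (GRCm38). The meningeal T cell libraries were not used here.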

Additional observations from a re-analysis of the deposited data

How the results depend on the processing

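The log2 ratio of fibroblast shares ran from -0.37 to -0.09 over its alternatives. The count of genes past 2-fold, 84, was 74 to 108 under 10 alternatives, but 301 of 1633 with each cell thinned to 1000 UMIs (1 and 2 shallower cells left out), 345 at a mean of at least 50 CPM and 19 at 200 CPM. Subgroups numbered 5 at resolution 1. Of 618 values of 52 named genes, 9 took the opposite sign to a main ratio that was past 2-fold. Genes under 2-fold, such as Ptgds and B2m (-0.24, with a range of -0.61 to 1.77), could also change sign. Ptprz1, at -1.01 with 35 of 37 DTRneg UMIs in 1 cell, was 0.56 without Scrublet doublets and 0.63 without its richest cells. Fxyd5 was -1.61 with at least 4 rule genes, -0.67 with no exclusion UMI, -0.30 outside subgroup 1, and -0.60 without the DTRpos cells richest in Clu and in Mgp, a leave-out chosen after seeing the data, as was that of subgroup 1. Mt3 was -0.01 without those 2 cells. Psme1 was -0.55, Wnt4 -0.14 and Dnajb11 -0.01 after thinning. The cause was not tested beyond what each setting leaves out. Of 319 list medians, 65 left a band around the main median as wide as the interval of the list sum. None took the opposite sign to a main median past 2-fold, but only the dural list had such a median. Smaller medians could change sign, such as those of immediate early genes (0.14, with a range of -0.07 to 0.29) and type I interferon genes (-0.11, with a range of -0.31 to 0.28). No paired analysis was possible because each genotype had 1 library. Depth limits any gene near 100 CPM to 18.8 and 12.3 UMIs, and 2 mice per library leave the spread between mice unmeasured.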

Other observations

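Several of the lower genes in DTRpos encode proteins of the endoplasmic reticulum and early secretory pathway: beside Rpn1 and Arf1, Kdelr2 returns chaperones from the Golgi (64 and 18 UMIs in 38 and 14 cells, log2 ratio -1.22, -2.06 to -0.44), Dnajb11 is a luminal co-chaperone (52 and 14 UMIs, -1.28, -2.25 to -0.41, but -0.01 with cells thinned to 1000 UMIs), Fkbp7 is a luminal prolyl isomerase (56 and 17 UMIs, -1.11, -1.98 to -0.30), and Xbp1 is a transcription factor of the unfolded protein response (59 and 17 UMIs, -1.18, -2.05 to -0.38). A list of 87 such genes was then written with these values already seen, so its counts are a description and support nothing. Of 57 members with a mean of at least 100 CPM, 43 were below 0, 9 were past 2-fold lower and none past 2-fold higher, with a median of -0.27. Over all 1620 genes, 51.4% were above 0, 2.22% were past 2-fold lower and 2.96% past 2-fold higher, with a median of 0.01. Their sum was 20177 CPM in DTRneg and 16647 in DTRpos, a log2 ratio of -0.28 (-0.36 to -0.20). The chaperone genes Hspa5 (250 and 114 UMIs, -0.52, -0.85 to -0.19) and Calr (90 and 89 UMIs, 0.60, 0.16 to 1.04) lay on opposite sides of 0.

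The list was written with the fibroblast values seen, so a larger shift in fibroblasts cannot be read as particular to them. Its measured members also differed: 57 in fibroblasts, 46 in pericytes, 42 in endothelial cells, 29 in choroid plexus cells and 34 in mature oligodendrocytes. In the other classes of the same libraries the list lay closer to its background but below it. Its median was -0.01 in pericytes beside 0.05 over all genes, -0.01 in endothelial cells beside 0.02, 0.02 in choroid plexus cells beside 0.11, and -0.05 in mature oligodendrocytes beside 0.06. Its summed ratio was also negative in each, from -0.08 (-0.16 to 0.00) in choroid plexus cells to -0.03 (-0.07 to 0.01) in endothelial cells. Within fibroblasts its summed ratio was -0.44 (-0.56 to -0.33) above the 1% Ptgds line and -0.09 (-0.20 to 0.01) below it, and it was -0.38 (-0.48 to -0.29) in subgroup 2 and -0.06 (-0.19 to 0.07) in subgroup 1. The differences between these sets of cells were not tested. Over 11 alternatives the list median ran from -0.36 to -0.17.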
